A study of Mus musculus with 18 samples.

Results

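T cells from Ebi3 knockout mice that were sorted and labelled as Treg were compared with T cells from Ebi3 knockout mice labelled as CD4, across all genes. The members are the 3 libraries labelled Treg and the 3 labelled CD4 from the knockout strain, 6 of the 18 libraries of the series, chosen by their labels alone. The series measured messenger RNA in mouse T cells of 3 labelled kinds (CD8, CD4 and Treg), each from wild type and knockout animals, with 3 libraries in each of 6 groups. All 6 libraries came from the spleen of mice of the strain Foxp3 YFP/cre, in which the Treg gene Foxp3 also drives a yellow fluorescent protein and Cre recombinase, and which lacked both copies of Ebi3. All cells were sorted by flow cytometry and then cultured for 72 h with antibodies to CD3, fixed to the plate, and to CD28, at 2 µg/ml each, and with IL-2 at 10 ng/ml, so that both groups were stimulated. A library was made from 500 ng of RNA by a method that reads the 3' end of each transcript and tags each molecule with an identifier. The labels do not give the sort gates, nor whether replicates were separate animals or cultures, so p-values here rest on the spread among these libraries alone, and that spread may be technical.

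Regulatory T cells (Treg) are CD4 T cells that restrain other immune cells. They are defined by the transcription factor FOXP3 and carry a high level of the IL-2 receptor alpha chain CD25 (Il2ra), the inhibitory receptor CTLA4 and the TNF receptors OX40 (Tnfrsf4) and GITR (Tnfrsf18). EBI3 pairs with other subunits to form the cytokines IL-27 and IL-35, and IL-35 was described as a product of Treg. Conventional CD4 T cells that receive signals through the T cell receptor and CD28 with IL-2 enter the cell cycle, raise glycolysis and lipid synthesis, secrete cytokines and lose the homing receptors of naive cells.

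The 3 Treg-labelled libraries stood apart from the CD4 libraries in depth and in make-up. Total counts were 2255950, 1874249 and 2109959 in the CD4 libraries and 881834, 1085238 and 865879 in the Treg-labelled libraries. Genes with at least 1 count numbered 16921 to 17254 in CD4 and 20034 to 20484 in Treg-labelled libraries, and at an equal depth of 865879 counts 15009 to 15101 against 19528 to 20262 would be expected. Counts on nuclear ribosomal RNA genes made up 1.72% to 2.20% of the CD4 libraries and 3.84% to 4.40% of the Treg-labelled ones, and long intergenic noncoding genes 0.754% to 0.883% against 1.84% to 1.93%. Protein-coding genes held 90.4% to 91.5% of CD4 counts and 84.3% to 85.6% of Treg-labelled counts. Their part in the differences below was not tested, and because they move with the labels they cannot be told apart from the cell label. Replicates 1 and 3 of the Treg-labelled group agreed within sampling noise (a chi-square of 0.914 for each gene, against 1.32 and 1.14 for the other pairs) and were counted as 1 sample, so that the Treg-labelled group has n = 2 and the CD4 group n = 3. A fit without Treg-labelled replicate 2 therefore has n = 1 in that group. Calls lost in that fit may come from the smaller n and do not measure the influence of that library. Each value below is a normalised read count (CPM, scaled to the depth of its library), in which 3 counts correspond to 1.30 to 1.55 CPM in the CD4 and 2.85 to 3.65 CPM in the Treg-labelled libraries; such floors cover counting error only.

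**Figure D1:**
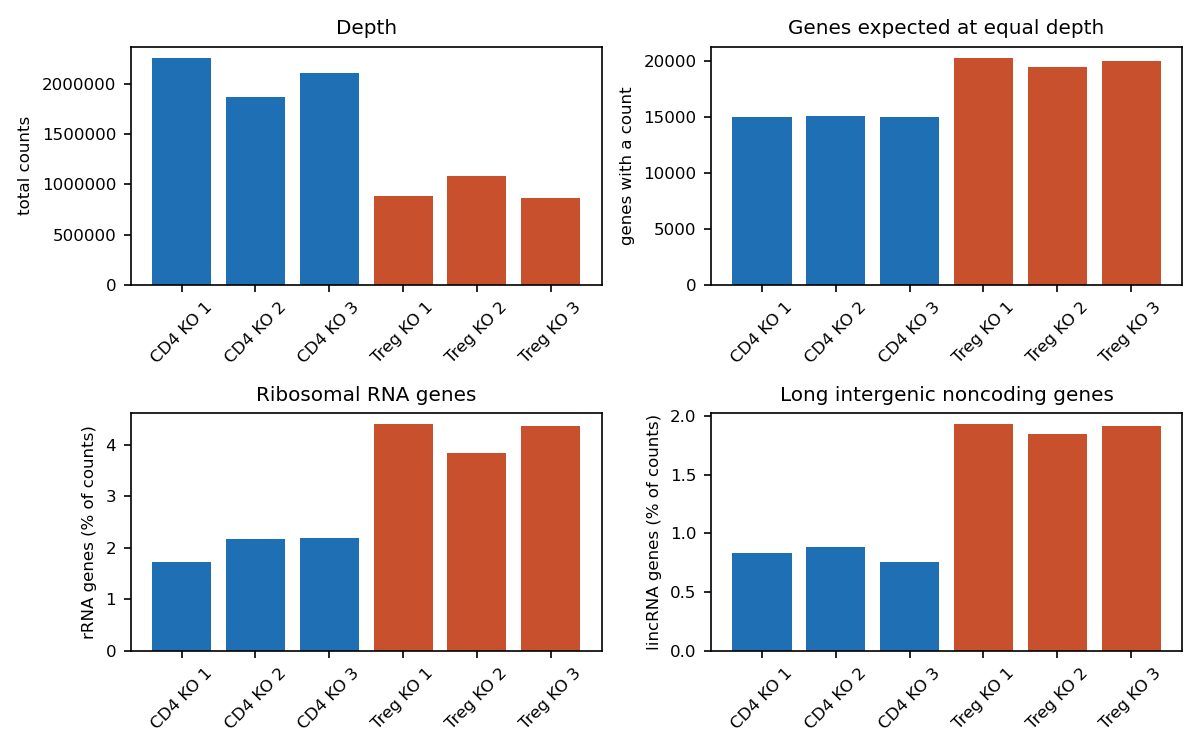
Bars give, for each of the 6 Ebi3 knockout libraries, the total counts, the number of genes expected to have a count at an equal depth of 865879 counts, and the percentage of counts on ribosomal RNA genes and on long intergenic noncoding genes. The 3 Treg-labelled libraries (orange) had fewer counts, more genes and higher noncoding shares than the 3 CD4 libraries (blue).

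The identity of the libraries was examined first. Ebi3 (chr17:55952640-55957022 in GRCm38), the gene named as deleted, was counted at 20.3, 25.9 and 22.2 CPM in the CD4 and 29, 34.2 and 24.4 CPM in the Treg-labelled libraries, a log2 change of 0.39 ± 0.24 (SE, adjusted p = 0.19) between overlapping groups. In wild type it was at 59.9, 38.3 and 39.0 CPM in the CD4 libraries, all above the knockout ones, and at 34.7, 25.6 and 39.8 CPM in the Treg-labelled libraries, which overlapped with the knockout ones. The CD8 libraries also overlapped, at 28.8, 27.7 and 29.4 CPM in wild type and 27.4, 23.9 and 33.7 CPM in knockout, and these differences between genotypes were not tested. The counts of Ebi3 thus do not show its loss in the Treg-labelled or CD8 libraries. A 3' tag lies near the end of the transcript and does not check a deletion elsewhere in the gene. Foxp3 gave 1 count over the 3 Treg-labelled libraries and 2 counts over the 3 CD4 libraries, too few to test, and a count at or under the floor of 3 in each library allows a level of up to 3.65 CPM. The defining marker of Treg was thus not detectable at this depth in the libraries that carry the Treg label, and they are called Treg-labelled here for that reason.

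Both coreceptors were counted in the Treg-labelled libraries. Cd4 (chr6:124864692-124888221), which encodes the coreceptor for MHC class II, stood at 155, 106 and 128 CPM in the CD4 and 47.1, 67.4 and 35.3 CPM in the Treg-labelled libraries, a log2 change of -1.30 ± 0.22 (SE, adjusted p = 4.32e-05), and the groups did not overlap. Cd8a (chr6:71373427-71379173), a chain of the coreceptor for MHC class I, was at 0.433, 1.03 and 0.927 CPM in the CD4 libraries, which is 1, 2 and 2 counts, and at 41, 24.7 and 42.6 CPM in the Treg-labelled libraries, a log2 change of 5.35 ± 0.47 (SE, adjusted p = 6.36e-09). Cd8b1, the partner chain, rose from 4.76, 6.73 and 11.6 to 42.2, 33.2 and 47.5 CPM, a log2 change of 2.37 ± 0.32 (SE, adjusted p = 3.84e-06). Every Treg-labelled library lay above every CD4 library for both chains. The CD8 libraries of the same knockout strain had 158, 179 and 142 CPM of Cd8a and 0, 0 and 1 counts of Cd4, so the Treg-labelled libraries lay between the other labelled kinds for both coreceptors. Zbtb7b, the transcription factor that fixes the CD4 lineage, was at 54.1, 50.2 and 41.3 against 68.8, 61.7 and 63.3 CPM, a log2 change of 0.40 ± 0.18 (SE, adjusted p = 0.0651), and Runx3, its counterpart in the CD8 lineage, had a log2 change of -0.05 ± 0.14 (SE, adjusted p = 0.789) with overlapping groups. The Zbtb7b difference passed the threshold in 5 alternatives, with adjusted p from 0.0286 to 0.0452. In a pool of cells, fewer cells of a type and less RNA per cell cannot be told apart.

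Of the Treg genes other than Foxp3, more fell than rose. From a list of 29 Treg identity genes 23 were tested, of which 4 were higher and 10 lower in the Treg-labelled libraries, with a median log2 change of -0.39 beside 0.10 over all genes; over all 12820 genes tested 25.7% were called higher and 18.6% lower. Il2ra (chr2:11642807-11693193) was at 630.0, 584 and 756 CPM in the CD4 and 152, 117 and 118 CPM in the Treg-labelled libraries, 5.18-fold lower, with a log2 change of -2.37 ± 0.29 (SE, adjusted p = 2.92e-05). All 3 CD4 libraries were thus well above the 3 Treg-labelled ones in the gene that marks Treg by its high level. The knockout CD8 libraries were also well above them, at 725, 868 and 601 CPM. A high level of Il2ra was thus seen in the stimulated cultures of both other labels. What its lower level says about the type of the Treg-labelled cells was not tested. Tnfrsf4 fell from 398, 383 and 484 to 45.9, 44.6 and 43.8 CPM (a log2 change of -3.23 ± 0.34 (SE, adjusted p = 6.44e-06)) and Tnfrsf18 from 344, 266 and 330.0 to 90.5, 68.3 and 82.8 CPM (a log2 change of -2.0 ± 0.18 (SE, adjusted p = 1.89e-08)). Ctla4 stood at 83.1, 44 and 50.1 against 25.3, 23.7 and 23.1 CPM, a log2 change of -1.30 ± 0.32 (SE, adjusted p = 0.00292). Izumo1r, which encodes folate receptor 4, had a log2 change of -2.41 ± 0.24 (SE, adjusted p = 1.89e-08), and Ikzf4, which encodes the Treg transcription factor Eos, had a log2 change of -2.52 ± 0.33 (SE, adjusted p = 1.1e-06). None of these 6 genes had overlapping groups.

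A few Treg genes went the other way. Ikzf2 (chr1:69531214-69687245), which encodes Helios, a transcription factor of thymus-derived Treg, was at 25.1, 16 and 17.1 CPM in the CD4 and 71.2, 45.5 and 53.6 CPM in the Treg-labelled libraries, a log2 change of 1.49 ± 0.33 (SE, adjusted p = 0.00123), with no overlap. The CD8 libraries of the knockout strain had 54.7, 50.4 and 21.8 CPM of Ikzf2, which overlapped with the Treg-labelled libraries. Its level there was thus not particular to the Treg label. Nt5e, which encodes the ectoenzyme CD73, rose by 0.95 (adjusted p = 0.0083) and Swap70 by 1.13 (adjusted p = 1.7e-05) on the log2 scale. Itgb8, an integrin chain that activates TGF-beta, had 13 counts over the Treg-labelled and 2 over the CD4 libraries, a ratio of CPM of 15.4 with a 95% counting interval of 3.48 to 140. The call of higher members was 4 of 23 with all libraries and 4 to 5 when any 1 library was left out.

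**Figure D2:**
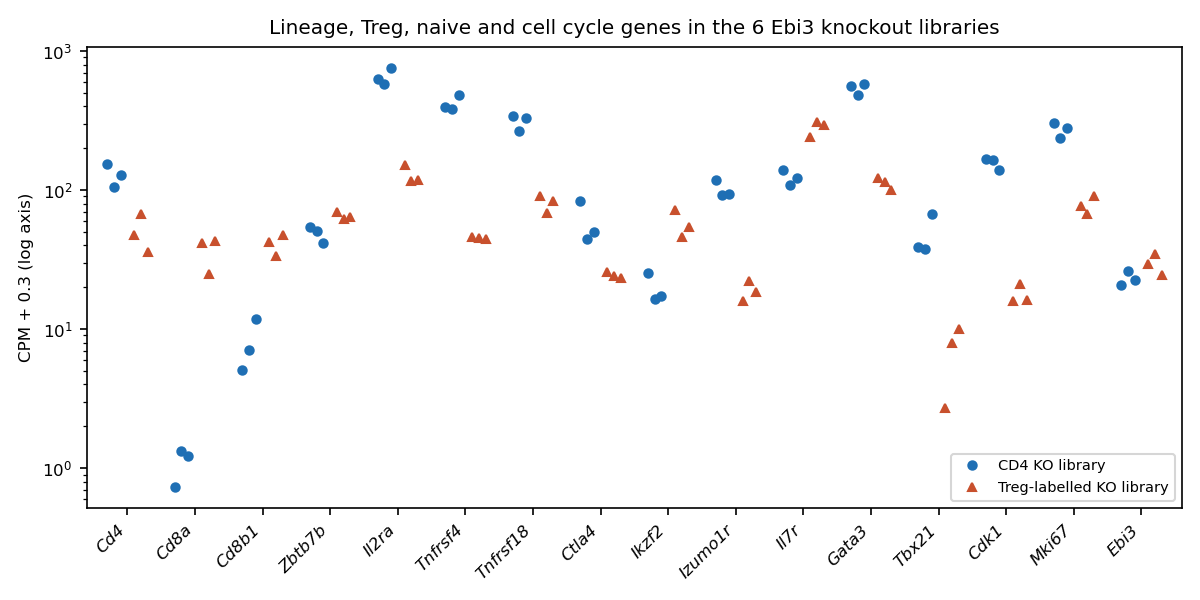
Points give the CPM plus 0.3, on a log axis, of 16 lineage, Treg, naive and cell cycle genes in each of the 3 CD4 (circles) and 3 Treg-labelled (triangles) Ebi3 knockout libraries. Il2ra, Tnfrsf4, Tnfrsf18, Izumo1r, Gata3 and Cdk1 lie lower, and Cd8a, Cd8b1, Ikzf2 and Il7r higher, in every Treg-labelled library, while the Ebi3 groups overlap.

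Across the transcriptome the 2 labels differed widely. At an adjusted p under 0.05 by edgeR's quasi-likelihood test, 5687 of 12820 genes (44.4%) were called, 3299 higher (25.7%) and 2388 lower (18.6%) in the Treg-labelled libraries, and in 5535 of them the groups did not overlap. At a difference of 2-fold or more, 1891 were higher and 1138 lower, and when the test itself required more than 1.5-fold, 1715 were higher (13.4%) and 1031 lower (8.04%). Of 10887 protein-coding genes tested, 2420 were higher (22.2%) and 2305 lower (21.2%); fitted alone, an alternative chosen after seeing the data, they gave 2694 higher and 2105 lower. The first principal component of the 6 libraries held 81.5% of their variance and separated the labels. The split depends on the scaling: with library totals alone 2784 were higher and 2843 lower, and with upper quartile scaling 3679 were higher and 2119 lower.

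**Figure D3:**
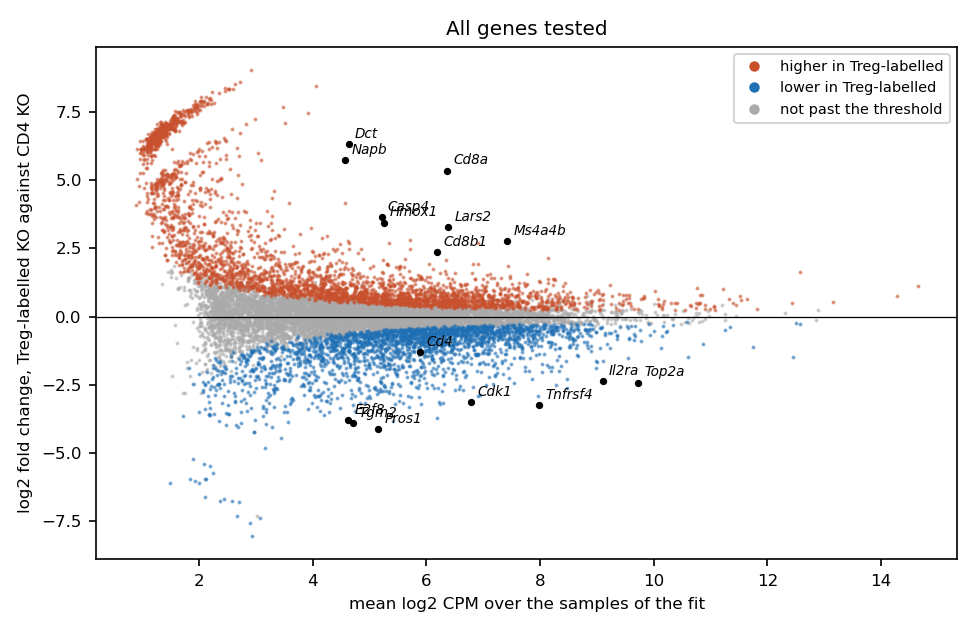
Each point is 1 of the 12820 genes tested, with its mean log2 CPM on the horizontal axis and its log2 fold change (Treg-labelled against CD4, Ebi3 knockout) on the vertical axis; orange genes were called higher, blue genes lower and grey genes neither. Genes with strong rises and low mean counts form the upper left arm, where CD4 libraries were at or near 0 counts and fitted changes are not bounds.

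Among genes with a mean log2 CPM of at least 4 over the samples of the fit, the highest rises were in genes of varied function. Dct (chr14:118012790-118052244), which encodes a pigment enzyme of melanocytes, had 3, 0 and 5 counts in the CD4 and 97, 97 and 97 in the Treg-labelled libraries. These are 1.30, 0 and 2.32 against 117, 92 and 118 CPM. The fitted log2 change was 6.33, or 7.09 without CD4 replicate 3. Napb, which encodes a SNAP protein of vesicle fusion in neurons, went from 1.73, 2.59 and 1.39 to 132, 80.6 and 113 CPM, a fitted log2 change of 5.73. Neither gene had overlapping groups, and every CD4 library held at most 5 counts of either. Those counts are too few to set the size of the change, and no p-value is given for these genes. Chst1, a carbohydrate sulfotransferase, rose by 4.18 (adjusted p = 1.95e-11), Sfxn5, a sideroflexin of mitochondria, by 2.95 (adjusted p = 3.22e-09) and Shisa8 by 2.79 (adjusted p = 9.63e-07) on the log2 scale. Casp4, the inflammatory caspase 11 of mice, stood at 7.79, 14.5 and 7.88 against 147, 112 and 124 CPM, 12.6-fold higher. Hmox1, which encodes heme oxygenase, was at 10.8, 9.83 and 11.6 against 119, 102 and 145 CPM, 10.9-fold higher, with adjusted p = 1.75e-12. Lars2, the mitochondrial leucyl-tRNA synthetase, went from 27.7, 25.3 and 28.7 to 298, 244 and 278 CPM, a log2 change of 3.29 ± 0.14 (SE, adjusted p = 1.1e-15). Ms4a4b, a membrane protein of T cells, rose from 74.4, 42.4 and 66.3 to 378, 459 and 402 CPM, its neighbour Ms4a4c by 2.90, and Txk, a kinase of the TEC family in T cells, by 2.70 on the log2 scale. Ms4a4b and Ms4a4c are close relatives, and how reads shared between such genes were counted is not given in the sources used here.

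The deepest falls above the same mean were also in genes of varied function. Pros1 (chr16:62854307-62929346), which encodes protein S, a ligand of TAM receptors made by activated T cells, was at 67.1, 46 and 42.6 CPM in the CD4 and 3.62, 2.85 and 2.44 CPM in the Treg-labelled libraries, a log2 change of -4.11 ± 0.43 (SE, adjusted p = 6.42e-08). Tgm2, transglutaminase 2, fell from 56.7, 67.3 and 93.6 to 7.24, 3.79 and 3.65 CPM and Crabp2, a carrier of retinoic acid, from 59.7, 78.6 and 102 to 9.65, 3.79 and 3.65 CPM, with adjusted p = 9.06e-08 and 6.39e-07. In these 3 genes each Treg-labelled library held at most 8 counts, and none overlapped with a CD4 library. For Pros1 every Treg-labelled library was at or under the floor of 3 counts, so the size of its fall is uncertain. Lad1, an anchoring filament protein, had a log2 change of -3.73, Dnph1, a nucleotide hydrolase, -3.60, Cpd, carboxypeptidase D, -3.33, Fancd2, a protein of DNA crosslink repair, -3.47 and Kif18b, a kinesin of mitosis, -3.31. E2f8, a repressor of the E2F family, was at -3.79 and Tnfrsf10b, a receptor for TRAIL, at -3.44; without Treg-labelled replicate 1 the E2f8 change was -4.80 and without Treg-labelled replicate 2 that of Tnfrsf10b was -4.04.

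Cell cycle genes fell almost as a class. Of 42 tested genes of S phase and DNA replication, 40 were lower (95.2%) and 0 higher, with a median log2 change of -1.65. Of 39 genes of G2 and mitosis, 38 were lower (97.4%) and 0 higher, with a median of -2.26, and leaving out any 1 library gave 39 to 40 lower in S phase and 38 in G2 and mitosis. Cdk1 (chr10:69335146-69352938), the kinase that starts mitosis, was at 168, 165 and 139 CPM in the CD4 and 15.7, 20.9 and 15.8 CPM in the Treg-labelled libraries, a log2 change of -3.13 ± 0.26 (SE, adjusted p = 5.02e-09). Ccnb1, its cyclin partner, went from 104, 96.7 and 94.6 to 10.9, 10.4 and 12.2 CPM, a log2 change of -3.14 ± 0.27 (SE, adjusted p = 1.49e-09). For both genes every Treg-labelled library lay far below the lowest CD4 library. Cdc6, which loads the replicative helicase, fell from 45.4, 55.4 and 69.5 to 6.03, 6.64 and 7.31 CPM (a log2 change of -3.08 ± 0.30 (SE, adjusted p = 8.9e-09)). Mcm10 and Cdc45, further replication factors, had log2 changes of -2.93 and -2.75, and Rrm2, the small subunit of ribonucleotide reductase, -2.69. Bub1, a checkpoint kinase, and Kif2c, a kinesin of the centromere, were both at -2.97, and Top2a, topoisomerase II alpha, fell from 1290.3, 1133 and 1308 to 249.8, 239 and 205 CPM (5.34-fold lower). Mki67, the proliferation antigen, was at 305, 238 and 279 against 76, 67.4 and 90.1 CPM. The exceptions were Slbp and Ung in S phase, with log2 changes of 0.38 and -0.12 (adjusted p = 0.129 and 0.61), and Smc4 in mitosis, with -0.14 (adjusted p = 0.509).

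Histone genes of S phase followed. Of 23 replication-dependent histone genes tested, 20 were lower and 0 higher, with a median of -2.16, and their summed level was 725, 741 and 1013 CPM in the CD4 and 266, 257 and 281 CPM in the Treg-labelled libraries. Hist1h3c, a histone H3 gene, had 57, 40 and 67 counts in the CD4 and 1, 3 and 2 in the Treg-labelled libraries, a log2 change of -3.48 ± 0.85 (SE, adjusted p = 0.00432). Hist1h2ab had 75 counts against 3, a CPM ratio of 0.0947 with a 95% counting interval of 0.0191 to 0.288. These messages lack a poly(A) tail in dividing cells and their copies are near identical, so that a poly(A)-primed library counts them only in part and single histone genes are uncertain.

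Promoters of the 2 cell cycle lists and of the list of sterol and fatty acid synthesis were searched for motifs known to bind their regulators, because the members moved together. Windows of 250 bases before to 50 bases after each start (RefSeq, GRCm38.p6) were available for 35 of 42 S phase genes (40 windows), 34 of 39 mitotic genes (37 windows) and 23 of 34 genes of lipid synthesis (28 windows). An E2F site, written TTTCCCGC, TTTCGCGC, TTTGCCGC or TTTGGCGC and read on both strands, lay in 13 S phase windows (32.5%), 3 mitotic windows (8.11%), 1 window of lipid synthesis (3.57%) and 2.26% of all 32851 windows. The cell cycle homology region, written TTTGAA and read on both strands, lay in 29 mitotic windows (78.4%), 4 S phase windows (10%), 3 windows of lipid synthesis (10.7%) and 17.9% of all windows. The CCAAT box, bound by NF-Y and written CCAAT on either strand, lay in 83.8% of mitotic windows, 71.4% of windows of lipid synthesis, 55% of S phase windows and 37.4% of all windows. The sterol regulatory element, written TCACNCCAC and read on both strands, lay in 1 window of lipid synthesis (3.57%), 1 S phase window (2.5%), 0 mitotic windows and 1.24% of all windows. None of the 4 motifs contains another. A match is a description of the letters and not evidence of binding in these cells. The promoters of Cdc6 (chr11:98907901-98908200, plus strand), Orc1 (chr4:108579204-108579503, plus strand; a subunit of the origin recognition complex) and Cdk1 (chr10:69352863-69353162, minus strand) are given as examples of the E2F site in S phase windows and of TTTGAA in mitotic windows. Capitals mark the E2F site in Cdc6 and Orc1, on the strand opposite to the spellings above, and 2 copies of TTTGAA in Cdk1. Other motifs are left in lower case. The Cdk1 window thus also holds the E2F spelling TTTCGCGC and the CCAAT box on the opposite strand.
Cdc6: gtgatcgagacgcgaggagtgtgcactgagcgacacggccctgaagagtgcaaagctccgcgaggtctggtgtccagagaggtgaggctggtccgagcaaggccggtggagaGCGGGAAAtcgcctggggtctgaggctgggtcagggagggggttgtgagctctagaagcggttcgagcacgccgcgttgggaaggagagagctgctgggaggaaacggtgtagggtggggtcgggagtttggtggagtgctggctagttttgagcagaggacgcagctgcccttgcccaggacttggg
Orc1: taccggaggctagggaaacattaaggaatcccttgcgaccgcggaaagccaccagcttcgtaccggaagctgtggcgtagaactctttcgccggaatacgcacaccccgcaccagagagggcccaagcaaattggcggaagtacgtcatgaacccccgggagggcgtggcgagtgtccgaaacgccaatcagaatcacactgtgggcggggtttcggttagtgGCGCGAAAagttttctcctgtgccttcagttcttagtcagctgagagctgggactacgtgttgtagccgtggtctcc
Cdk1: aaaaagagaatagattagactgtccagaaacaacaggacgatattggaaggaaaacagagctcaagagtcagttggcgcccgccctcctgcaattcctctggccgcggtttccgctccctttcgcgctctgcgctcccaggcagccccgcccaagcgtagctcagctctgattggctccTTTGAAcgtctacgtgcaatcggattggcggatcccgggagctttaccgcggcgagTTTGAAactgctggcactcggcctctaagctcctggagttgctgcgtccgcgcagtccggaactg

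Orc1, like Cdc6, was lower in the Treg-labelled libraries, at 42.4, 39.8 and 50.1 CPM in the CD4 and 7.24, 5.69 and 8.53 CPM in the Treg-labelled libraries, a log2 change of -2.64 ± 0.32 (SE, adjusted p = 2.6e-07).

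Genes of lipid synthesis were mostly lower. Of 33 tested genes of sterol and fatty acid synthesis, 27 were lower (81.8%) and 0 higher, with a median of -1.34, and without any 1 library 23 to 27 were lower. Hmgcs1 (chr13:119690379-119708260), which encodes an enzyme early in the sterol pathway, was at 379, 339.9 and 348 CPM in the CD4 and 109.8, 84.4 and 113 CPM in the Treg-labelled libraries, a log2 change of -1.84 ± 0.17 (SE, adjusted p = 2.99e-08). Lss, lanosterol synthase, had a log2 change of -1.96, and the desaturases Fads2 and Scd2 had -2.52 and -2.27. Elovl6, which lengthens fatty acids, was at -1.92. Idi1, Acaca, Ebp, Tm7sf2, Scd1 and Srebf2 did not pass the threshold.

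Genes of glycolysis and of lactate export were mostly lower or did not pass the test. Of 29 tested, 16 were lower (55.2%) and 1 higher, with a median of -0.80. Slc16a1, a lactate transporter, fell from 105, 112 and 132 to 26.6, 24.7 and 28 CPM (a log2 change of -2.14 ± 0.19 (SE, adjusted p = 2.63e-09)), and the glucose transporter Slc2a3 from 50.6, 51.7 and 51.4 to 14.5, 14.2 and 17.1 CPM (a log2 change of -1.75 ± 0.23 (SE, adjusted p = 9.62e-07)). Egln3, an oxygen sensor induced by HIF, had a log2 change of -2.63, and the lactate exporter Slc16a3 -3.15, or -3.84 without Treg-labelled replicate 3. The 1 gene that rose was Ankrd37, at 1.39, itself a target of HIF. Gapdh, Pgk1 and Eno1 did not pass the threshold.

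Genes of protein folding and turnover were also mostly lower. All chaperonin subunits tested except Hspe1 were lower (11 of 12, median -0.97), with Cct2 going from 553, 537 and 620.1 to 228, 244 and 249.7 CPM and Hspd1, the mitochondrial HSP60, from 527, 444 and 477 to 212, 172 and 175 CPM. Proteasome genes were lower in 28 of 34 and higher in 0 (median -0.57), led by Psmg1 (-1.47), a proteasome assembly chaperone, and the catalytic subunit gene Psmb7 (-1.36). Mitochondrial ribosomal proteins were lower in 41 of 75 and higher in 0 (median -0.50), and nuclear genes of oxidative phosphorylation lower in 28 of 55 and higher in 3 (median -0.32; 1 higher without CD4 replicate 3, Treg-labelled replicate 1 or Treg-labelled replicate 2). Of the latter, Cyc1, cytochrome c1, was at -0.96 and Atp5c1, a subunit of ATP synthase, at -1.14. Nucleolar genes of ribosome biogenesis were lower in 18 of 48 and higher in 1 (median -0.24), with Npm1, nucleophosmin, at -1.01. With a fold of more than 1.5 required, 7 of 34 proteasome, 9 of 75 mitochondrial ribosomal and 6 of 48 nucleolar genes were lower. Over all genes tested 8.04% were lower under that rule, and the mitochondrial ribosomal and nucleolar shares lay not far above it.

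Ribosomal protein and translation genes were split. Of 81 cytosolic ribosomal protein genes 30 were higher and 13 lower (median 0.18), with Rps27 and Rps29 at 1.05 and 1.01 and Rpl7a and Rps27l at -1.02 and -1.09. The aminoacyl-tRNA synthetases of the cytosol were lower in 11 of 20, with Kars at -1.23, and only Aars was higher, at 0.77; without CD4 replicate 3 or Treg-labelled replicate 2, 7 and 6 were lower. In the list of amino acid stress and unfolded protein genes 7 were higher and 14 lower of 33 (median -0.16). Atf5, a transcription factor of the stress response, rose from 46.3, 52.8 and 41.7 to 340.3, 270.4 and 330.1 CPM (a log2 change of 2.70 ± 0.17 (SE, adjusted p = 8.65e-12)) with no overlap, while Asns, asparagine synthetase, was at -2.05 and Sdf2l1, a chaperone of the endoplasmic reticulum, at -2.34. The shares higher and lower were 37% and 16% for cytosolic ribosomal proteins and 21.2% and 42.4% for the stress list. Over all genes tested they were 25.7% and 18.6%. Among mitochondrially encoded genes mt-Nd5 and mt-Co1 were lower (-1.47 and -1.12) and the ribosomal RNAs mt-Rnr1 and mt-Rnr2 higher (0.54 and 0.74). Of 37 splicing genes 5 were higher and 13 lower, 8 without Treg-labelled replicate 2.

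**Figure D4:**
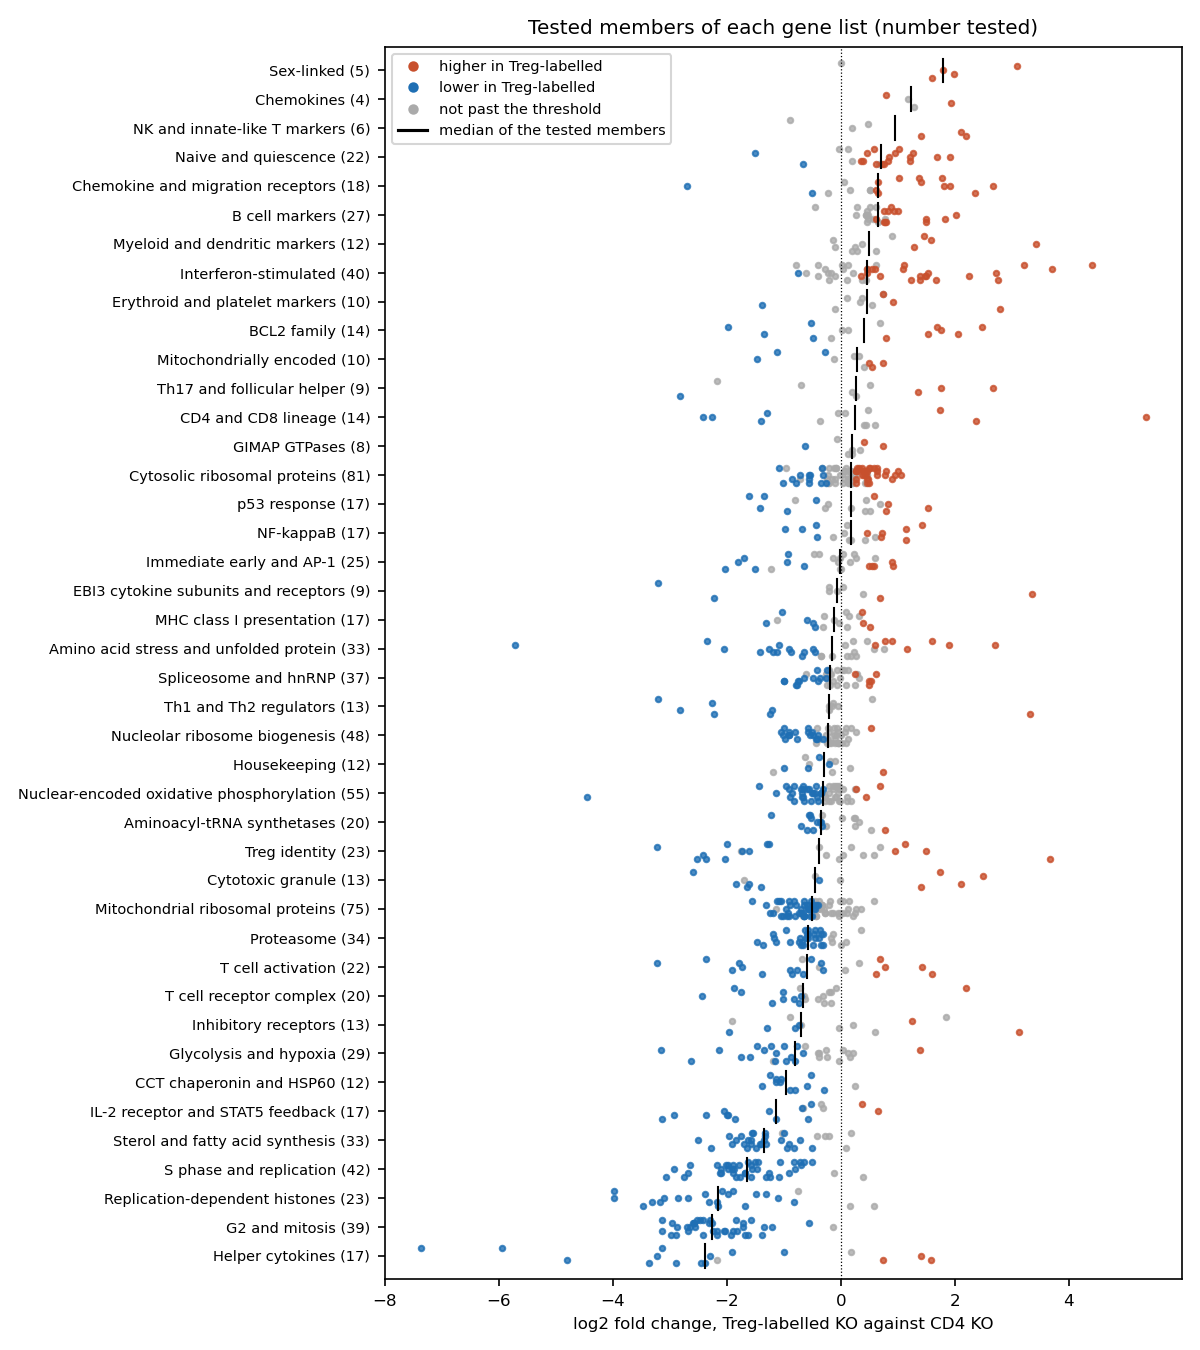
Each row is a gene list with at least 4 tested members; points are the members' log2 fold changes (Treg-labelled against CD4, Ebi3 knockout), coloured by call, and the black bar is the list's median. Cell cycle, histone, sterol and helper cytokine lists lie to the left, and naive, migration, interferon and B cell lists to the right; the fitted values farthest to the left belong to genes with 0 counts in the Treg-labelled libraries and are not bounds.

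The IL-2 pathway was mostly lower, from receptor to feedback. Of 17 genes of the IL-2 receptor and STAT5 response, 12 were lower and 2 higher, or 1 higher without Treg-labelled replicate 2, with a median of -1.14. The receptor chains parted: Il2ra and Il2rb were lower (-2.37 and -2.0), while Il2rg, the chain shared with other cytokines, was higher (0.36). Cish, a feedback inhibitor that STAT5 induces, fell from 389, 330.0 and 347 to 47.1, 44.6 and 49.9 CPM (a log2 change of -2.92 ± 0.19 (SE, adjusted p = 5.33e-11)), and Socs1, another, from 60.6, 87.4 and 84.4 to 19.3, 18 and 18.3 CPM (a log2 change of -2.06 ± 0.33 (SE, adjusted p = 5.9e-05)). Every Treg-labelled library lay far below every CD4 library in both. Lta, lymphotoxin alpha, was at -3.14 and Bcl2l1, which encodes the survival protein BCL-XL, at -1.98. Il2 itself was at 9.95, 9.83 and 13 CPM in the CD4 and 1.21, 0 and 2.44 CPM in the Treg-labelled libraries, a log2 change of -3.23 ± 0.70 (SE, adjusted p = 0.000458). Every Treg-labelled library was under the floor of 3 counts for Il2, so the size of its fall is uncertain.

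Cytokine genes of helper cells were lower in most cases. Of 17 tested, 12 were lower and 3 higher, with a median of -2.39, or -2.30 with 2 genes at 0 in the Treg-labelled libraries set to a floor of 3 counts over the group. Lif gave 20, 30 and 22 counts in the CD4 libraries and 0 in each Treg-labelled library, and Csf2, which encodes GM-CSF, 10, 2 and 15 counts against 0. The 95% counting interval of the CPM ratio of Treg-labelled to CD4 libraries reached up to 0.124 for Lif and up to 0.347 for Csf2. Tnfsf11, which encodes RANKL, had 79 counts against 1, a CPM ratio of 0.03 with a 95% counting interval of 0.0007 to 0.172, and Il5 had 53 against 2, a ratio of 0.0894 (0.0105 to 0.339). The 3 that rose were Ifng, the Th1 cytokine, at 14.3, 12.9 and 12.5 against 36.2, 31.3 and 56 CPM (a log2 change of 1.58 ± 0.43 (SE, adjusted p = 0.00919)), Ltb, lymphotoxin beta, at 1.40, and Tgfb1 at 0.73. Among regulators of helper lineages Gata3, the Th2 master factor, fell from 559, 484 and 583 to 122, 115 and 99.9 CPM (a log2 change of -2.26 ± 0.19 (SE, adjusted p = 3.45e-08)), and Tbx21, the Th1 master factor, from 38.5, 37.2 and 67.2 to 2.41, 7.59 and 9.74 CPM (a log2 change of -2.82 ± 0.37 (SE, adjusted p = 1.36e-06)). The IL-12 receptor genes Il12rb2 and Il12rb1 were at -3.20 and -2.23, and the IL-18 receptor gene Il18r1 rose by 3.32 on the log2 scale.

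Signalling from the T cell receptor gave a mixed picture. The chains of the receptor and CD3 (Cd3d, Cd3e, Cd3g, Trac, Trbc1 and Trbc2) did not pass the threshold; Trac was at 241, 235 and 299 CPM in the CD4 and 217, 244 and 216 CPM in the Treg-labelled libraries. Below the receptor, Lcp2, the adaptor SLP-76, fell from 278, 256 and 286 to 45.9, 55 and 47.5 CPM (a log2 change of -2.44 ± 0.21 (SE, adjusted p = 2.16e-08)), and the kinase gene Zap70 was at -1.76. Of 20 genes in that list 9 were lower and 1 higher (median -0.67), the 1 that rose being the gamma-delta gene Trdc, with 0, 7 and 9 counts in the Treg-labelled libraries and a call lost without Treg-labelled replicate 2 (adjusted p = 0.0525) or 3 (adjusted p = 0.211). Activation genes were lower in 13 and higher in 5 of 22 (median -0.60). Nr4a3, an early target of receptor signals, was at -1.91 and the transferrin receptor Tfrc at -1.38, against rises in Slc7a5, an amino acid transporter (1.59), and Nfkbid, an atypical inhibitor of NF-kappaB (1.43). Immediate early genes were lower in 7 and higher in 5 of 25 (median -0.01, or 0.06 with upper quartile scaling and 0.04 over protein-coding genes alone), with the ERK phosphatase genes Dusp5 and Dusp6 at -2.04 and -1.51. Inhibitory receptor genes were lower in 4 and higher in 2 of 13, with Cd200 at -1.96 and Vsir, which encodes VISTA, at 1.24. The shares higher and lower were 20% and 28% for immediate early genes and 15.4% and 30.8% for inhibitory receptors. Over all genes tested they were 25.7% and 18.6%.

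Genes of naive and resting T cells rose. Of 22 tested, 16 were higher (72.7%) and 2 lower, with a median of 0.70, and without any 1 library 11 to 17 were higher. Il7r (chr15:9505788-9530176), the receptor of the survival cytokine IL-7, rose from 138, 108 and 122 CPM in the CD4 to 243, 306 and 292 CPM in the Treg-labelled libraries (a log2 change of 1.22 ± 0.23 (SE, adjusted p = 0.00053)). The lowest Treg-labelled library exceeded the highest CD4 library. Rasgrp2, an activator of RAP1, was at 1.68, Igfbp4 at 1.27, the egress receptor S1pr1 at 1.03 and its regulator Klf2 at 0.72. Dapl1 and Satb1 went down, at -1.50 and -0.67, and Lef1, Tcf7, Pdcd4 and Tob1 did not pass the threshold. Receptors of migration were higher in 11 and lower in 2 of 18 (median 0.65). Ccr6 rose from 9.52, 8.28 and 9.73 to 76, 57.9 and 42.6 CPM (a log2 change of 2.66 ± 0.28 (SE, adjusted p = 3.45e-08)) and Cxcr4 from 9.95, 12.9 and 10.2 to 59.1, 48.4 and 65.8 CPM (a log2 change of 2.35 ± 0.27 (SE, adjusted p = 9.79e-08)), whereas Ccr4, a receptor of Th2 cells and Treg, fell from 48.9, 35.2 and 46.3 to 7.24, 6.64 and 6.09 CPM (a log2 change of -2.70 ± 0.36 (SE, adjusted p = 1.76e-06)).

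Interferon-stimulated genes rose in part. Of 40 tested, 21 were higher (52.5%) and 1 lower, with a median of 0.46; without any 1 library 15 to 19 were higher. Ifi208 and Ifi206, of the DNA-sensing PYHIN family, rose from 3.03, 1.55 and 4.17 to 30.2, 44.6 and 40.2 CPM and from 3.03, 5.69 and 3.24 to 27.8, 41.7 and 39 CPM, with adjusted p = 2.83e-09 and 2.65e-08. Rtp4 was at 2.75, and Ifi44 had 22 counts in the Treg-labelled against 2 in the CD4 libraries, a CPM ratio of 26.0 (95% counting interval 6.40 to 228). The groups did not overlap in these 4 genes, all of which had low counts in the CD4 libraries. Isg15, Mx1, Usp18 and Stat2, further members of the response, did not pass the threshold, and Igtp was lower, at -0.76.

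Cell death genes of the BCL2 family moved in both directions. Of 14 tested, 6 were higher and 4 lower (median 0.41); without CD4 replicate 3 or Treg-labelled replicate 2, 2 were lower. Bcl2l11, which encodes the death-promoting protein BIM, went from 38.5, 57.9 and 42.2 to 212, 181 and 189 CPM (a log2 change of 2.06 ± 0.17 (SE, adjusted p = 9.17e-10)), and Bmf, a related protein, from 3.03, 3.10 and 4.17 to 24.1, 16.1 and 19.5 CPM (a log2 change of 2.48 ± 0.38 (SE, adjusted p = 6.76e-06)). Bax, an effector of mitochondrial permeability, rose by 1.54 on the log2 scale. The survival gene Bcl2l1 fell from 152, 122 and 121 to 31.4, 31.3 and 39 CPM (a log2 change of -1.98 ± 0.26 (SE, adjusted p = 6.88e-06)) and Bcl2 from 389, 374 and 332 to 229, 278 and 238 CPM (a log2 change of -0.52 ± 0.12 (SE, adjusted p = 0.00098)). Bcl2a1b also rose, at 1.75, but belongs to a cluster of near-identical copies and is uncertain. Of 17 p53 targets 4 were higher and 5 lower (median 0.17), or 3 lower without CD4 replicate 1 and 7 higher with upper quartile scaling, with Cdkn1a, the cell cycle inhibitor p21, at -1.42. Of 17 NF-kappaB genes 6 were higher and 4 lower (median 0.17), with Nfkbiz at 1.15 and Traf1 at -0.98. The shares higher and lower were 23.5% and 29.4% for p53 targets and 35.3% and 23.5% for NF-kappaB genes. Over all genes tested they were 25.7% and 18.6%.

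Markers of other cell types were counted in both groups, and of those that passed the test only Tfrc, on the erythroid list, was lower in the Treg-labelled one. Of 27 B cell genes tested, 13 were higher and 0 lower (median 0.64), and their summed level was 8627, 11770.0 and 9359 CPM in the CD4 and 14360.0, 14789 and 14817 CPM in the Treg-labelled libraries. Cd79a, a chain of the B cell receptor complex, was at 3.89, 7.76 and 6.95 against 32.6, 15.2 and 20.7 CPM (a log2 change of 1.82 ± 0.35 (SE, adjusted p = 0.000109)), and Ebf1, a B lineage factor, at 103, 143 and 96.4 against 315, 299 and 362 CPM (a log2 change of 1.49 ± 0.26 (SE, adjusted p = 0.000459)). The defining gene Ms4a1 did not pass the threshold (adjusted p = 0.483), and its groups overlapped. Without CD4 replicate 1, CD4 replicate 3 or Treg-labelled replicate 2 the count of higher B cell genes was 6 each time, with library totals 7 and in a fit of the 6 libraries alone 24, with 1 lower. The summed level of myeloid and dendritic markers was 749, 953 and 794 against 961, 1064 and 1004 CPM, with 4 of 12 tested genes higher and 0 lower, or 2 higher without CD4 replicate 1. That of natural killer and innate-like T markers was 61, 55.4 and 57.5 against 79.7, 80.6 and 81.6 CPM, with 3 of 6 higher, 0 without Treg-labelled replicate 2 and 1 without CD4 replicate 1 or Treg-labelled replicate 3. That of erythroid and platelet markers was 1152, 1406 and 1296 against 1470.0, 1477 and 1429 CPM, with 3 of 10 higher and 1 lower. The shares higher and lower were 30% and 10% for erythroid and platelet markers and 33.3% and 0% for myeloid and dendritic ones. Over all genes tested they were 25.7% and 18.6%. Stromal and endothelial markers summed to 48.5, 71.4 and 75.1 against 135, 145 and 136 CPM, a ratio of the group means of 2.16, with 1 of 2 higher and 0 lower. Of these 4 lists 12 of 30, 6 of 18, 10 of 19 and 2 of 15 genes passed the filter on low counts. The macrophage and dendritic genes Lyz1 and Cd209a and the natural killer receptor genes Klra3 and Klre1, like the stromal genes Ccl19, Ccl21a and Acta2, were at 0 counts in all 6 libraries, and Ncr1, which marks natural killer cells, had at most 1 count in each. The part of such cells in the other results was not tested. Cytotoxic genes went both ways: Prf1, perforin, rose from 5.19, 3.10 and 1.39 to 14.5, 22.8 and 17.1 CPM (a log2 change of 2.49 ± 0.42 (SE, adjusted p = 3.62e-05)), while Gzmb, granzyme B, was at -1.62 and Serpinb6b, an inhibitor of granzymes, at -2.60.

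Xist, which is transcribed in female cells, and genes of the Y chromosome were both counted in all 6 libraries. Xist was at 729, 691 and 608 CPM in the CD4 and 775, 616 and 694 CPM in the Treg-labelled libraries, a log2 change of 0.0 ± 0.21 (SE, adjusted p = 0.992). Ddx3y, a Y-linked helicase, was at 11.3, 19.7 and 17.6 against 32.6, 73.1 and 51.2 CPM (a log2 change of 1.79 ± 0.32 (SE, adjusted p = 0.00012)), and Kdm5d was also higher, by 1.60 on the log2 scale. Both were higher in every Treg-labelled library than in any CD4 library, while the Xist groups overlapped. Eif2s3y had 4, 5 and 3 counts in the CD4 and 9, 22 and 13 in the Treg-labelled libraries. Uty had 5, 7 and 10 against 11, 18 and 8, before scaling to depth. These last Y-linked genes passed the filter on low counts only with the Treg-labelled libraries, so no call is given for them.

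Noncoding, predicted and olfactory receptor genes were counted more in the Treg-labelled libraries. Of 240 long intergenic noncoding genes tested 132 were higher (55%) and 12 lower (5%), and of 199 antisense genes 121 were higher (60.8%) and 7 lower (3.52%). Over all genes tested 25.7% were higher and 18.6% lower. Of the 3299 higher calls 830 were predicted genes or genes without a symbol, against 96 of the 2388 lower calls. How many such genes were tested was not counted, so these are not shares of the genes tested. Genes counted mainly in the Treg-labelled libraries can pass the filter through those libraries alone, which favours higher calls, so the counts of noncoding and predicted genes are descriptions only. Gm10800, a predicted gene, had 214 counts over the Treg-labelled and 1 count over the CD4 libraries, a CPM ratio of 507 with a 95% counting interval of 90.0 to 20106. Olfactory receptor genes, which are read in sensory neurons of the nose, gave a count in 231, 216 and 223 of 1135 genes in the Treg-labelled libraries and in 20, 10 and 12 in the CD4 libraries. Their summed level was 618, 422 and 586 CPM against 14.3, 8.28 and 8.81 CPM, and in the CD8 libraries of the knockout strain 9.12, 13.2 and 3.80 CPM. Members passed the filter only through the Treg-labelled group, so no count of calls is given for them. Antisense and overlapping genes are uncertain, since the strand setting of the counting is not given in the sources used here.

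The same labels were set side by side in the libraries labelled wild type, none of which enters the knockout comparison by its label. There 5047 of 12820 genes (39.4%) were called, 2938 higher (22.9%) and 2109 lower (16.5%). Of the knockout calls 4210 were also called in the same direction in wild type, 74% of the knockout list and 83.4% of the wild type list, and 0 in the opposite direction. The log2 change of Il2ra was -2.37 in knockout and -2.09 in wild type, that of Cd8a 5.35 and 5.53, that of Cdk1 -3.13 and -2.75 and that of Ikzf2 1.49 and 1.57. List medians lay at -1.65 and -1.49 for S phase, -1.34 and -1.15 for lipid synthesis, 0.70 and 0.58 for naive genes and 0.64 and 0.20 for B cell genes. Of the 9 pairs of a wild type and a knockout Treg-labelled library, 4 agreed within sampling noise, for example wild type replicate 3 and knockout replicate 2 (a chi-square of 0.869 for each gene). The Treg-labelled libraries of the 2 genotypes are therefore not shown to be separate samples, and the shared calls are not independent support for each other.

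The test of the difference between genotypes called 0 genes by edgeR (379 at an unadjusted p under 0.05, where 641 would pass if no gene differed; lowest adjusted p 1), and 0 by DESeq2 and by limma-voom. The median standard error of that difference was 0.37 on the log2 scale, which limits how small a difference could have been called. The Treg-labelled libraries of the 2 genotypes are also not shown to be separate samples. If they hold the same material, the test compares little more than the CD4 libraries, so the absence of calls does not show that the genotypes are alike. The lowest unadjusted p belonged to Spire1, an actin nucleator, with log2 changes of -0.69 in knockout and 1.14 in wild type. Tcea1, an elongation factor, was at 0.06 and 0.90, Maf, a factor of IL-10 production, at 0.55 and 1.85, Tmc6 at 0.91 and -0.14 and the predicted gene Gm43696 at 1.02 and -0.16. Neither these 5 nor any other gene is shown to differ between genotypes in how the labels part. Among the subunits and receptors of EBI3 cytokines 2 were higher and 2 lower of 9 (median -0.07, or 0.01 with upper quartile scaling). These shares were 22.2% each, beside 25.7% and 18.6% over all genes tested. Il23a rose, with 1, 1 and 2 counts in the CD4 and 8, 6 and 5 in the Treg-labelled libraries (adjusted p = 0.00054), too few in CD4 to set the size of the change. Il6st, the shared receptor chain gp130, had a log2 change of 0.69 ± 0.24 (SE, adjusted p = 0.0246) between overlapping groups, a call lost when any of 4 libraries was left out singly.

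**Figure D5:**
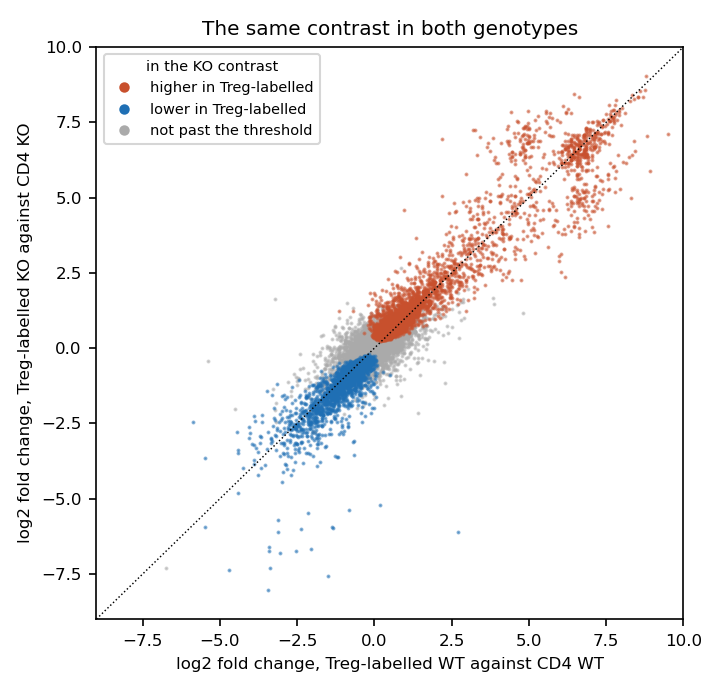
Each point is a tested gene, with its log2 fold change between Treg-labelled and CD4 libraries in wild type on the horizontal axis and in Ebi3 knockout on the vertical axis; colours give the call in knockout and the dotted line marks equal values. Of the genes called in knockout 4210 were called in the same direction in wild type and 0 in the opposite direction.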

How the data were processed

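The authors deposited 1 table of raw counts, with 55487 Ensembl genes and a column for each of 18 libraries; 0 columns were left unused. The submitters' processing notes name STAR 2.5.3a, featureCounts of Subread 2.0.0, UMI-tools 1.0.0, cutadapt 2.10 and FastQC, with GRCm38; the sources used here do not give order, annotation, strand setting or handling of multiply aligned reads. Per the labels' protocols the libraries were QuantSeq 3' FWD with molecular identifiers. Gene names and coordinates came from GENCODE M21 (55141 IDs matched).

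Counts were fitted with edgeR 4.0.16 (R 4.3.3; filterByExpr with a minimum count of 10, TMM, glmQLFit with robust on 6 group means, glmQLFTest, Benjamini-Hochberg at 0.05). All 18 libraries entered, so that groups share 1 estimate of the spread; in each Treg-labelled group a pair that did not differ by a chi-square test (genes with 20 or more counts in the pair) was summed, leaving 16 samples and 10 residual degrees of freedom. CPM use the TMM-scaled library size, and standard errors are the log2 change over the root of F. Intervals on ratios of few counts are exact (95%). Alternatives used DESeq2 1.42.0, limma 3.58.1 and other scalings, filters and samples. Scripts were tested on simulated data.

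Genes named were 9 markers, the 12 largest rises and falls among called genes with a mean log2 CPM of at least 4 and groups that do not overlap (predicted genes and pseudogenes passed over), up to 4 called members of each of 44 gene lists with the largest change, and the 5 lowest p values of the difference between genotypes; Gm10800, Orc1, Il2, Ifng and further list members were added after their values were seen. A few genes that the rule names are not reported here. The members and lists were chosen with earlier results of these data known, and list counts are descriptions.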

Additional observations from a re-analysis of the deposited data

How the results depend on the processing

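With library totals 5627 genes were called in knockout, 49.5% of them higher, and with upper quartile scaling 5798, 63.5% higher, against 5687 and 58%. With a fold of more than 1.5 required, 2746 genes were called in knockout (1715 higher, 1031 lower) and 2343 in wild type (1562 higher, 781 lower). Leaving out 1 library of the groups compared gave 4753 to 5443 calls in knockout (2881 to 3162 higher, 1872 to 2281 lower) and 4235 to 5405 in wild type (2500 to 3019 higher, 1581 to 2386 lower), and 0 for the difference between genotypes. DESeq2 called 2545 higher and 2095 lower in knockout, limma-voom 3391 and 2280, no filter on low counts 4849 and 3005, and the 6 libraries alone 2802 and 2731. Over protein-coding genes only, an alternative chosen after seeing the data, 2694 were higher and 2105 lower. The replicate numbers do not pair the samples (correlations of deviations between same-numbered CD4 and Treg-labelled libraries from -0.07 to 0.05); with a replicate block and all 18 libraries entered separately 3492 were higher and 2536 lower in knockout, against 3524 and 2571 entered separately with no block.

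Of 186 named genes tested, 185 kept their direction under every alternative. Tcea1, not called, turned to -0.0445 with library totals, -0.082 with no filter, -0.0192 without CD4 replicate 2 and -0.0227 without Treg-labelled replicate 3; the cause was not tested. Of 43 list medians, 41 kept their sign; the EBI3 cytokine list turned to 0.0054 and the immediate early list to 0.0561 with upper quartile scaling, and the latter to 0.0362 over protein-coding genes. Without CD4 replicate 1, 8 named genes lost their call, the most for any knockout library whose removal left 2 or more samples in each group. The fit without Treg-labelled replicate 2 has 1 summed sample in that group, and so does the wild type fit without Treg-labelled replicate 3. The ranges above include these fits, and their lost calls do not measure the influence of the library left out. Upper quartile scaling moved the median over all genes to 0.17 and library totals to 0.00, against 0.10. The Treg-labelled depth limits calls for genes under 2.85 to 3.65 CPM.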
